A study of Mus musculus with 24 samples.

Results

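Yap1, Wwtr1 (the gene of TAZ) and 8 genes known as their targets were followed in cells sorted from mouse lungs 7 days after irradiation. The 10 genes were chosen by name and matched by Ensembl identifier to GENCODE M21, where Ctgf is listed as Ccn2 and Cyr61 as Ccn1. All 10 were found among the 48795 gene identifiers of each of 2 tables, 1 for epithelial and 1 for mesenchymal cells. The study asked how irradiation, with and without depletion of neutrophils, alters the transcriptome of both compartments. All mice were female Balb/c mice of 8 weeks. Depleted mice received 13 Gy to the lungs and daily injections of anti-Ly6G, an antibody against a neutrophil surface protein. Irradiated mice received 13 Gy to the lungs and an IgG control antibody, and sham mice received sham irradiation and the IgG control. Lung digests were sorted by FACS for cells without CD45 (leukocytes), CD31 (endothelium) and Ter119 (red cells), and these were split into EpCAM+ epithelial and EpCAM- mesenchymal cells, although the protocol text names CD45 in the place of CD31. Each group held 4 mice, which gave 12 libraries per table and 24 in all.

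YAP and TAZ are transcriptional coactivators that the Hippo kinases keep out of the nucleus. The kinases STK3 and STK4 activate LATS1 and LATS2, and LATS phosphorylates YAP and TAZ, which are then retained in the cytoplasm or degraded. When YAP and TAZ enter the nucleus they bind DNA through TEAD factors and switch on genes such as Ctgf, Cyr61 and Ankrd1, and in the lung they are known for roles in alveolar type 1 cell fate and regeneration. Their activity is set largely by phosphorylation and location, which RNA does not measure.

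The promoters are shown because TEAD factors are the route by which YAP and TAZ reach DNA. The RefSeq promoter table (GRCm38.p6) matched 7 of the 10 genes, all except Ctgf, Fjx1 and Nuak2. The TEAD motif searched was GGAATG, on both strands, in the 250 bases before the transcription start. It was present in 6 of the 7 matched genes (Yap1, Wwtr1, Cyr61, Ankrd1, Amotl2 and Ptpn14, not Lats2). By window it was present in 7 of their 9 windows, against 12.6% of 32851 windows of the same length. The genes were chosen as known effectors and targets of this route, so the comparison is no test of an excess. Wwtr1 and Lats2 had more than 1 window each, and those of Wwtr1 overlap and hold the same match. The AP-1 motif TGANTCA was present in 0 of 7 matched genes and in 6.75% of all windows, and the CArG box in 0 of 7 and in 1.47%. A match is a run of letters and not a measured binding site. The windows of Cyr61 (chr3:145649986-145650235, minus strand), Ankrd1 (chr19:36119845-36120094, minus strand) and Ptpn14 (chr1:189728018-189728267, plus strand) follow 5′ to 3′, with the TEAD motif or its reverse complement in capitals. Cyr61 carried 1 match that began 103 bases before the start, Ankrd1 carried 2, at 210 and 123 bases, and Ptpn14 carried 1, at 146 bases.
Cyr61: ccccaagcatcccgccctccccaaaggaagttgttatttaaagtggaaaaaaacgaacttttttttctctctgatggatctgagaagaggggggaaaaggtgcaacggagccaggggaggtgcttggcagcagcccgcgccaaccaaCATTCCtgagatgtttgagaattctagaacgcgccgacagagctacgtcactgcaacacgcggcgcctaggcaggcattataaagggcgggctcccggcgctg
Ankrd1: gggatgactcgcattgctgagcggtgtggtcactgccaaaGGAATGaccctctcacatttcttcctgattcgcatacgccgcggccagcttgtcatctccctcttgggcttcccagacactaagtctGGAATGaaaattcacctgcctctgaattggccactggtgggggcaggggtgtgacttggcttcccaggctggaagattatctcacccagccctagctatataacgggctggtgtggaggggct
Ptpn14: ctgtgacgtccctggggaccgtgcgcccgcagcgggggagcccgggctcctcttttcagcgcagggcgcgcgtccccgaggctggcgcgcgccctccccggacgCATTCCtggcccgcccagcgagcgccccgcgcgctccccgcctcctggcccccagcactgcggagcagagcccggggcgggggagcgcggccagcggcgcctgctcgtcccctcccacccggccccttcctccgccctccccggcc

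Epithelial libraries held 8159062 to 13373329 reads and mesenchymal libraries 7366672 to 11408083. Values are the authors' normalised counts, read counts divided by 1 size factor per library, and 3 reads correspond to 2.36 to 3.81 normalised counts in the epithelial and 2.48 to 3.66 in the mesenchymal table. In the epithelial table the summed normalised count of 7 epithelial markers was 338800 to 429072, of which Sftpc (surfactant protein C) made up 93.6% to 94.8%, and in the mesenchymal table that of 7 mesenchymal markers was 127605 to 221324, so both labels were borne out by their markers. Markers of other cell types were also present, and the levels of several lists moved with the groups. Not every list moved in both fractions. In depleted relative to sham epithelium and mesenchyme, the median log2 change of 5 smooth muscle and myofibroblast markers was 0.10 and 0.03. For 5 pericyte markers (4 tested in the epithelium) it was 0.77 and 0.02, and for 8 alveolar type 1 markers 0.13 and 0.64. The sum of 7 mesenchymal markers in the epithelial table was 8508 to 10169 in depleted, 7243 to 7926 in irradiated and 6039 to 6652 in sham libraries. That of 7 endothelial markers there was 1263 to 1956 in depleted, 1240 to 2383 in irradiated and 749 to 1086 in sham libraries. The sum of 7 endothelial markers in the mesenchymal table was 1669 to 3091 in depleted, 2305 to 3938 in irradiated and 1015 to 2388 in sham libraries, and that of 7 epithelial markers was 2603 to 4107 in depleted, 2992 to 5137 in irradiated and 1479 to 3163 in sham libraries. Of the 7 endothelial markers limma called 1 higher in depleted relative to sham cells of each fraction (11.3% of epithelial and 15.2% of mesenchymal genes were called). In irradiated relative to sham cells it called 2 higher in the epithelium and 0 in the mesenchyme (3.14% and 3.8%). The sort removed CD45+ cells, so the 5 neutrophil markers in these libraries (sums of 116 to 388 in depleted, 111 to 425 in irradiated and 9.37 to 48.8 in sham epithelium) do not check the depletion. The sum of 7 leukocyte markers was 737 to 970 in depleted, 746 to 1353 in irradiated and 406 to 722 in sham epithelium. Of 5 mesothelial markers 3 were called higher in depleted relative to sham epithelium, with a list median of 2.09 on the log2 scale, and Msln, the mesothelin gene, averaged 375 normalised counts in depleted, 173 in irradiated and 76.5 in sham epithelium. All 6 listed p53 targets rose in depleted and in irradiated cells of both tables, relative to sham.

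The RNA of YAP and TAZ themselves did not pass the test in either fraction, while their targets moved in different directions. In the mesenchyme, Cyr61 and Ctgf, the abundant secreted matricellular targets, fell in depleted relative to sham lungs, to 0.493-fold and 0.572-fold. Over the same comparison Nuak2, Ptpn14 and Fjx1 rose 2.17-fold, 1.51-fold and 1.83-fold, and Nuak2 and Ptpn14 had also risen in irradiated relative to sham mesenchyme. In the epithelium Fjx1, Nuak2, Ptpn14 and Lats2 rose in depleted relative to sham lungs. No member fell there by limma, while DESeq2 called Ctgf lower. Depleted relative to sham joins the effects of irradiation and anti-Ly6G. Between depleted and irradiated lungs limma called 0 of 10 members in either fraction. In that comparison DESeq2 called Ctgf and Cyr61 lower in the epithelium and Cyr61 lower in the mesenchyme. All irradiated mesenchymal libraries of Cyr61 also lay below all sham libraries, without a limma call (adjusted p = 0.0938). Folds are on the scale of log2(value + 1), which understates changes of low genes, and "rose" and "fell" mean an adjusted p under 0.05 in limma over all genes tested. In such bulk libraries fewer cells of a type and less RNA per cell cannot be told apart.

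Counts of members called stood as follows. In the epithelium, 4 of 10 rose and 0 fell in depleted relative to sham lungs, where 11.3% of 16626 genes were called (6.52% higher and 4.76% lower). The 4 include Fjx1, which passed the filter on low values through the irradiated groups. DESeq2 also called Ctgf lower there (adjusted p = 0.0198), and edgeR called 0 lower. In irradiated relative to sham epithelium, where 3.14% of genes were called (2.26% higher), the single member called by limma was Fjx1. It passed the filter on low values through the irradiated groups and was not called without that filter (adjusted p = 0.0769). By edgeR too Fjx1 alone was called, whereas DESeq2 called Ptpn14 alone (adjusted p = 0.0338, and 0.0605 for Fjx1). Between depleted and irradiated epithelium limma called 0 of 10, against 0.475% of genes (0.271% lower), with 3 at an unadjusted p under 0.05, and edgeR called 0 and DESeq2 2 (Ctgf and Cyr61, both lower). In the mesenchyme, 3 of 10 rose and 2 fell in depleted relative to sham lungs, where 15.2% of 16624 genes were called (8.51% higher and 6.7% lower). Nuak2 and Ptpn14 rose and none fell by limma in irradiated relative to sham mesenchyme, where 3.8% of genes were called (2.64% higher and 1.15% lower). There edgeR called the same 2, and DESeq2 called these and Cyr61, the latter lower (adjusted p = 0.044). Between depleted and irradiated mesenchyme limma called 0 of 10, against 2.69% of genes (2.02% higher and 0.674% lower), with 1 at an unadjusted p under 0.05, and edgeR called 0 and DESeq2 1 (Cyr61, lower). By the libraries alone, 4 members lay wholly higher (Fjx1, Lats2, Nuak2 and Ptpn14) and 1 wholly lower (Ankrd1) in depleted than in sham epithelium, where 8.76% and 7.89% of genes did so. Between irradiated and sham epithelium 3 lay wholly higher (Fjx1, Lats2 and Nuak2) and 0 lower (4.94% and 3.89% of genes), and between depleted and irradiated epithelium 0 lay wholly higher and 1 lower, Cyr61 (3.24% and 3.18%). In the mesenchyme, Nuak2 and Ptpn14 lay wholly higher and Cyr61 wholly lower in depleted than in sham lungs (10.3% and 9.07% of genes) and in irradiated than in sham lungs (6.26% and 5.55%). None did so in either direction between depleted and irradiated mesenchyme (6.09% and 3.93%). The members' median log2 change was 0.06, 0.13 and 0.04 in the epithelium (depleted over sham, irradiated over sham, depleted over irradiated) and -0.01, -0.01 and 0.03 in the mesenchyme, against medians of all tested genes of -0.007, -0.00707 and 0.000641 in the epithelium and -0.00544, -0.00749 and -0.00453 in the mesenchyme for the same comparisons. Comparisons against sham share the sham libraries, and both comparisons of irradiated lungs share those libraries.

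**Figure D1:**
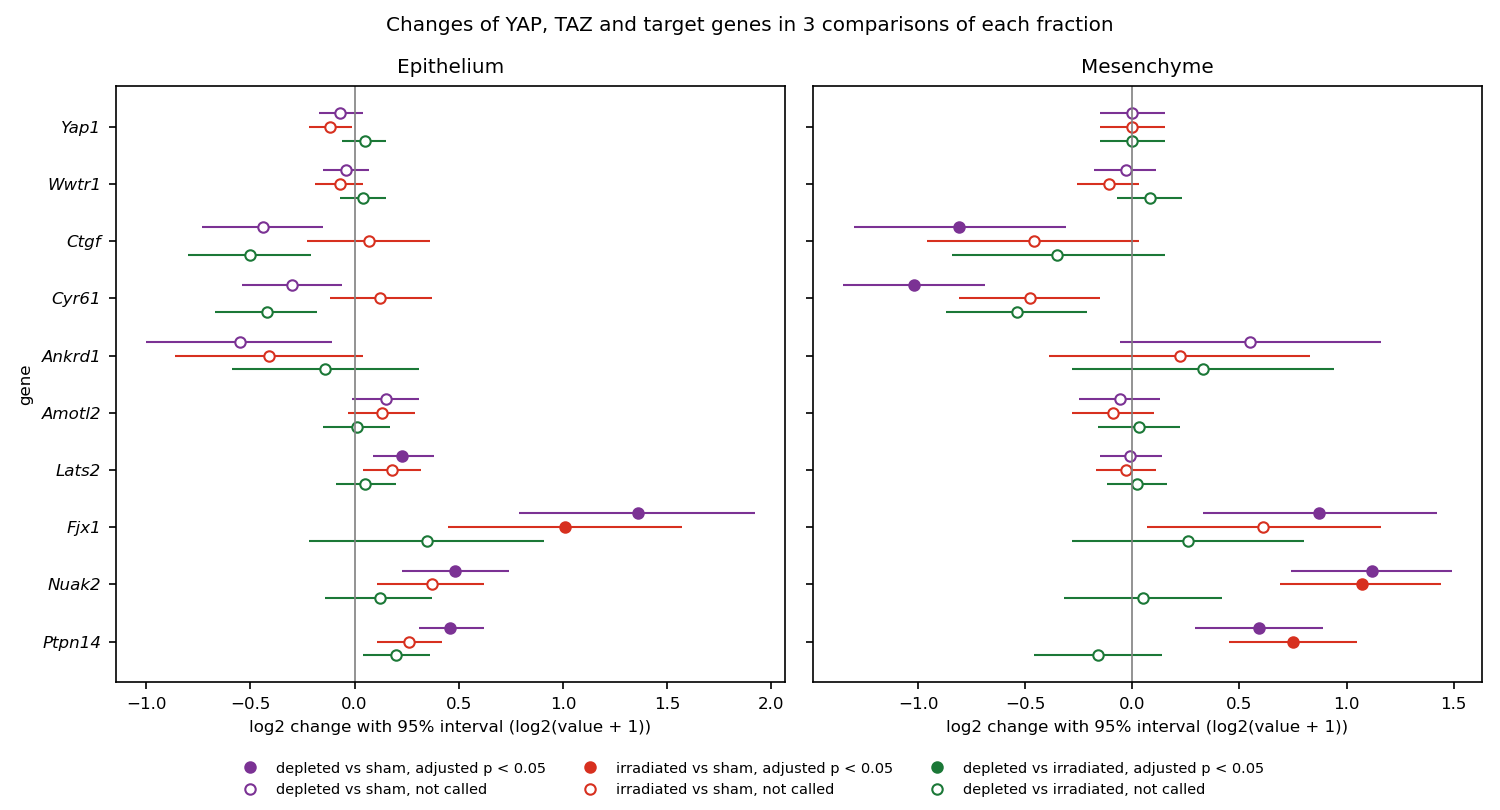
Log2 change on the log2(value + 1) scale (x axis) of each gene (y axis) in 3 comparisons of the epithelium (left) and the mesenchyme (right), with 95% intervals as lines and filled points for an adjusted p under 0.05. Cyr61 in the mesenchyme lies at -1.02 for depleted relative to sham, and Nuak2 lies above 1 in both comparisons with sham, while the points of Yap1 and Wwtr1 stay near 0.

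Per kilobase of exon, so that genes can be set side by side, Cyr61 was the highest member in every group of both tables. In the epithelium its level per kilobase was 682 ± 80.7 in depleted, 913 ± 94.3 in irradiated and 841 ± 123 in sham libraries (SD, n = 4 each). Below it in sham epithelium, in normalised counts per kilobase, came Amotl2 at 334, Ctgf at 208, Wwtr1 at 178, Yap1 at 174, Lats2 at 91.8, Nuak2 at 74, Ptpn14 at 48.2, Ankrd1 at 23.9 and Fjx1 at 2.71. Neighbours in that order did not overlap between libraries, except Wwtr1 and Yap1. In the mesenchyme the level of Cyr61 per kilobase was 4153 ± 1105 in depleted, 5943 ± 767 in irradiated and 8246 ± 826 in sham libraries (SD, n = 4 each). It was followed in sham mesenchyme, on the same scale, by Ctgf at 2058, Wwtr1 at 318, Amotl2 at 269, Lats2 at 192, Yap1 at 144, Ptpn14 at 19.7, Ankrd1 at 14, Nuak2 at 12.6 and Fjx1 at 7.07. There Ptpn14 and Ankrd1 overlapped, as did Ankrd1 and Nuak2. In both irradiated groups of the mesenchyme Nuak2 stood above Ankrd1 in this order, with overlapping libraries. Ctgf stood above Yap1 and Wwtr1 in irradiated and sham epithelium and below both in depleted epithelium, where it overlapped with Yap1. The tables have separate scales, so no level is compared between them.

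**Figure D2:**
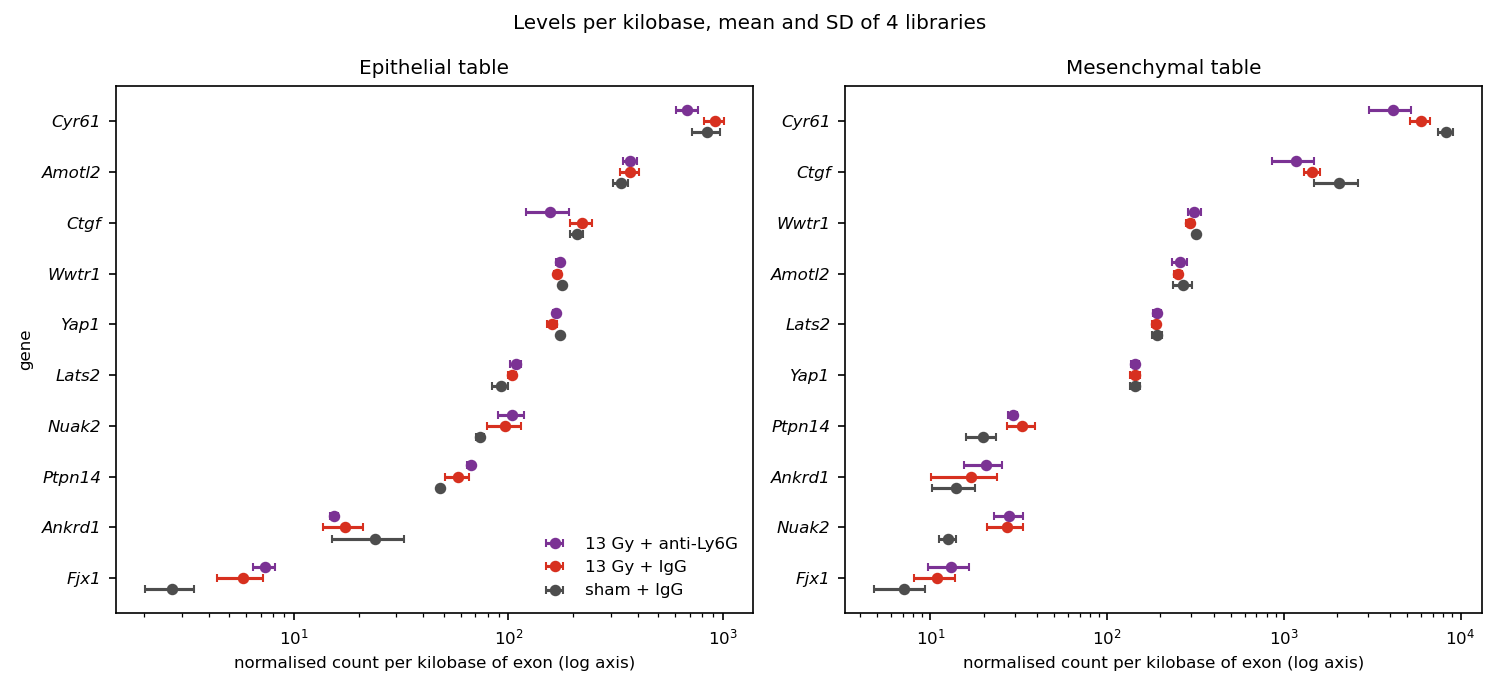
Normalised count per kilobase of exon (x axis, log scale) of the 10 genes (y axis, ordered by their level in sham libraries) in the epithelial (left) and mesenchymal (right) tables; points are means of 4 libraries and bars are SD. Cyr61 stands highest in all groups, at 8246 per kilobase in sham mesenchyme.

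Yap1 (ENSMUSG00000053110, GRCm38 chromosome 9, 7931999 to 8004596, minus strand) encodes YAP. Its epithelial normalised counts were 1528, 1513, 1493 and 1599 in depleted, 1465, 1471, 1593 and 1410 in irradiated and 1589, 1638, 1579 and 1620 in sham libraries. The irradiated libraries were low except replicate 3, which lay within the sham range, and the log2 change of irradiated over sham was -0.12 ± 0.0502 (SE, unadjusted p = 0.0343, adjusted p = 0.288). Its mesenchymal normalised counts were 1266, 1272, 1398 and 1378 in depleted, 1263, 1319, 1453 and 1289 in irradiated and 1351, 1438, 1332 and 1212 in sham libraries. These groups overlapped throughout, and the 95% interval of the fold was 0.9 to 1.11 for irradiated over sham and 0.898 to 1.11 for depleted over sham.

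Wwtr1 (ENSMUSG00000027803, GRCm38 chromosome 3, 57455649 to 57575910, minus strand) encodes TAZ, the paralogue of YAP. In the epithelium its normalised count was 794, 844, 868 and 805 in depleted, 834, 830, 778 and 785 in irradiated and 852, 863, 859 and 821 in sham libraries. In the mesenchyme it was 1454, 1352, 1651 and 1505 in depleted, 1411, 1316, 1501 and 1406 in irradiated and 1496, 1526, 1530 and 1526 in sham libraries. The groups overlapped in both fractions, and the 4 sham mesenchymal libraries lay close together. The 95% interval of the fold was 0.903 to 1.05 for depleted over sham and 0.88 to 1.03 for irradiated over sham in the epithelium, and 0.884 to 1.08 and 0.837 to 1.02 in the mesenchyme.

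Cyr61 (ENSMUSG00000028195, GRCm38 chromosome 3, 145646976 to 145649981, minus strand) encodes CCN1, a secreted protein that binds integrins. In the mesenchyme its normalised count was 8242, 7382, 11531 and 6383 in depleted, 11781, 9913, 13410 and 12895 in irradiated and 16725, 14553, 16684 and 18632 in sham libraries. All depleted and all irradiated libraries lay below all sham libraries, and only depleted replicate 3 reached into the irradiated range. Its change on the log2 scale was -1.02 ± 0.154 for depleted over sham (adjusted p = 0.000567), -0.48 ± 0.154 for irradiated over sham (adjusted p = 0.0938) and -0.54 ± 0.154 for depleted over irradiated (adjusted p = 0.0784). The change of irradiated over sham passed with DESeq2 (adjusted p = 0.044). In limma it passed with the 2 groups alone (adjusted p = 0.0364) or a block for the replicate number (adjusted p = 0.0448). The call of depleted over sham held with every library left out in turn (adjusted p up to 0.00284). With the level of epithelial markers as a covariate, an alternative chosen after seeing the data, it was lost (log2 change -0.68, adjusted p = 0.0828). With that of endothelial markers it held (-0.83, adjusted p = 0.00316). Cyr61 RNA carried over from epithelial cells was estimated from its ratio to epithelial markers in epithelial libraries times their sum in each mesenchymal library. That estimate was 9.96 to 15.7 in depleted and 6.19 to 13.2 in sham mesenchyme, against measured means of 8384 and 16648. Without Sftpc among the markers it was at most 37.5 and 20.8. The part of carried-over RNA in the call was not tested.

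In the epithelium, Cyr61 had normalised counts of 1503, 1175, 1514 and 1314 in depleted, 1690, 1683, 2071 and 1931 in irradiated and 1961, 1835, 1587 and 1409 in sham libraries. All depleted libraries lay below all irradiated libraries, and the sham libraries spanned both. Its log2 change was -0.30 ± 0.112 for depleted over sham (adjusted p = 0.111), 0.12 ± 0.112 for irradiated over sham (adjusted p = 0.701) and -0.42 ± 0.112 for depleted over irradiated (adjusted p = 0.131). The mesenchymal markers in the epithelial libraries give a carried-over amount of a gene, computed after seeing the data. It is the ratio of the gene to those markers in the mesenchymal table times their sum in each epithelial library. For Cyr61 that estimate was 372 to 445 in depleted, 561 to 614 in irradiated and 614 to 677 in sham epithelium. The summed normalised count of 9 immediate early genes, which cell handling can induce, was 76852 to 86126 in depleted, 76901 to 90770 in irradiated and 89170 to 95973 in sham epithelium. The part of either in the epithelial values was not tested.

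Ctgf (Ccn2, ENSMUSG00000019997, GRCm38 chromosome 10, 24595442 to 24598683, plus strand) encodes connective tissue growth factor, a secreted matricellular protein linked to fibrosis. In the mesenchyme its normalised count was 4391, 2799, 3806 and 2402 in depleted, 3930, 3931, 3967 and 4790 in irradiated and 5200, 3867, 7487 and 6998 in sham libraries. The sham libraries were widely spread, and replicate 2 of them lay within the depleted range and below all irradiated libraries. The fitted log2 change was -0.81 ± 0.225 for depleted over sham (adjusted p = 0.0333) and -0.46 ± 0.225 for irradiated over sham (adjusted p = 0.274). The call was lost without sham replicate 1, 3 or 4 or depleted replicate 2 or 4 (adjusted p up to 0.092), and with either marker covariate (adjusted p = 0.171 endothelial and 0.597 epithelial). It was also lost in limma without the filter on low values (adjusted p = 0.0954) and with the 2 groups alone (adjusted p = 0.0875). The estimate of Ctgf carried over from epithelial cells was at most 5.08 in depleted and 4.66 in sham mesenchyme. Without Sftpc among the markers it was at most 12.1 and 7.3. In the epithelium the normalised count of Ctgf was 584, 383, 466 and 355 in depleted, 560, 671, 565 and 706 in irradiated and 638, 552, 620 and 571 in sham libraries. Depleted replicate 1 lay within the range of the other groups and the other depleted libraries lay below all irradiated and sham libraries. The log2 change was -0.44 ± 0.135 for depleted over sham (adjusted p = 0.0555) and -0.50 ± 0.135 for depleted over irradiated (adjusted p = 0.133). The change over sham passed with DESeq2 (adjusted p = 0.0198). In limma it passed with quantile normalisation (adjusted p = 0.0471) or a filter on a mean of at least 50 (adjusted p = 0.0483). Without depleted replicate 1 the change over irradiated passed (log2 change -0.64, adjusted p = 0.0165). The carried-over estimate of Ctgf was 149 to 178 in depleted, 196 to 214 in irradiated and 214 to 236 in sham epithelium.

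**Figure D3:**
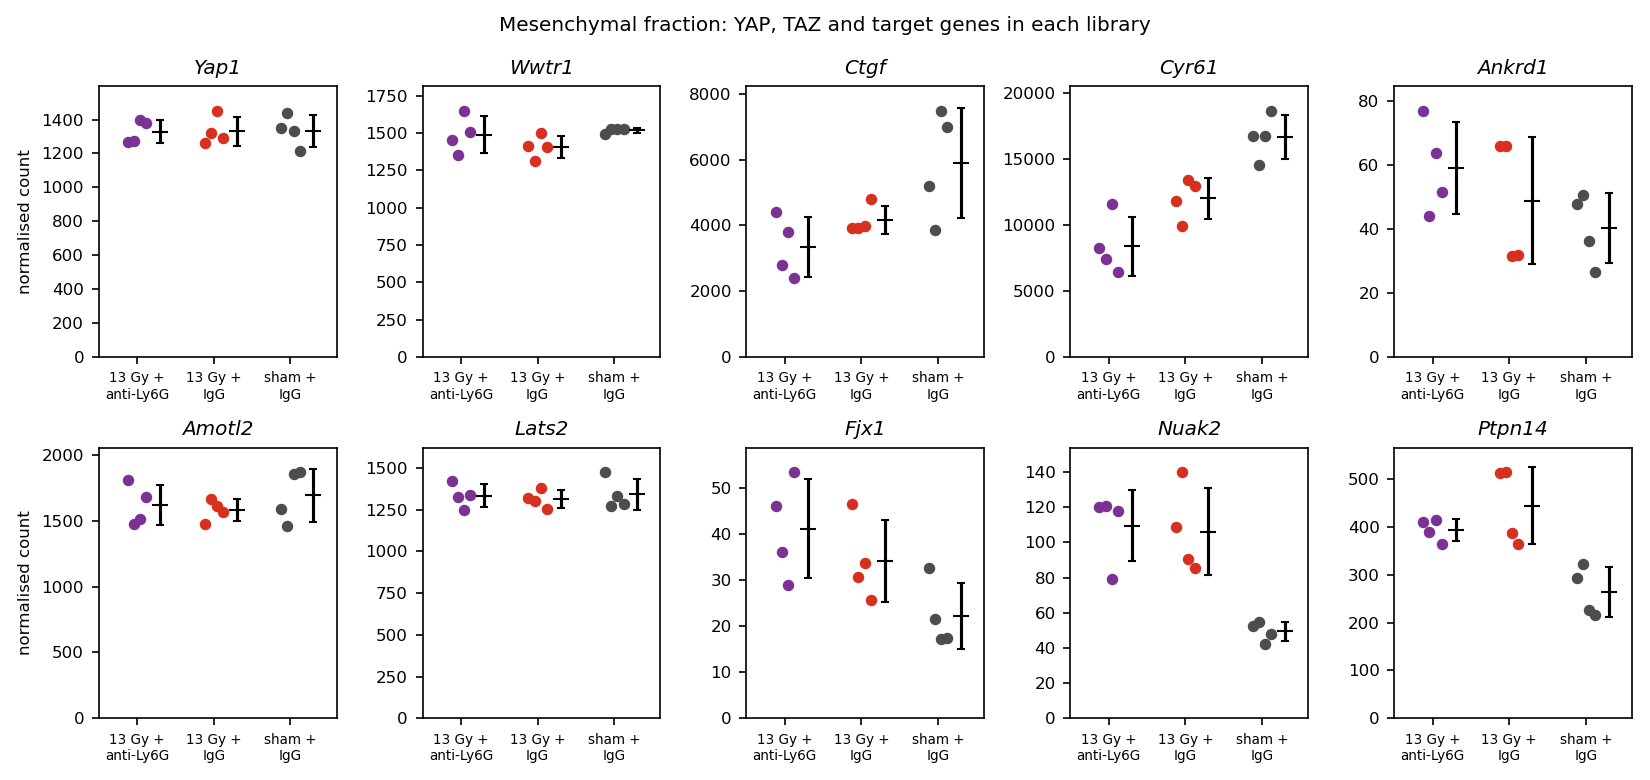
Normalised count (y axis, from 0) of each gene in the 12 mesenchymal libraries; points are libraries and bars are mean and SD of 4. Cyr61 spans 6383 to 11531 in depleted, 9913 to 13410 in irradiated and 14553 to 18632 in sham libraries.

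Nuak2 (ENSMUSG00000009772, GRCm38 chromosome 1, 132316126 to 132333488, plus strand) encodes an AMPK-related kinase that, in human and mouse cells, feeds back on YAP activity through LATS and the actin cytoskeleton. In the mesenchyme its normalised count was 120, 121, 79.2 and 118 in depleted, 109, 140, 90.5 and 85.4 in irradiated and 52.7, 54.6, 42.4 and 48.2 in sham libraries. Every library of both irradiated groups lay above every sham library, and depleted and irradiated libraries overlapped. Its change on the log2 scale was 1.12 ± 0.176 for depleted over sham (adjusted p = 0.000569), 1.07 ± 0.176 for irradiated over sham (adjusted p = 0.00371) and 0.05 ± 0.176 for depleted over irradiated (adjusted p = 0.914). The first 2 calls held with every library left out. The estimate of Nuak2 carried over from epithelial cells was at most 4.64 in depleted, 4.91 in irradiated and 2.27 in sham mesenchyme, and at most 11.2, 9.71 and 3.56 in these groups when Sftpc was left out of the markers. With the endothelial marker level as a covariate the change of depleted over sham was 0.89 (adjusted p = 0.00465) and that of irradiated over sham 0.69 (adjusted p = 0.336), and with the epithelial level neither was called (adjusted p = 0.124 and 0.307). These marker levels differ between the groups, so their part and that of the treatment cannot be told apart.

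Epithelial Nuak2 had normalised counts of 446, 465, 339 and 386 in depleted, 442, 434, 335 and 305 in irradiated and 301, 294, 293 and 273 in sham libraries. Here too both irradiated groups lay above sham without overlap, irradiated replicate 4 narrowly. Its log2 change was 0.48 ± 0.12 for depleted over sham (adjusted p = 0.0161) and 0.37 ± 0.12 for irradiated over sham (adjusted p = 0.12). The call was lost without sham replicate 4 or depleted replicate 1 (adjusted p up to 0.0537), and irradiated over sham passed without irradiated replicate 4 (adjusted p = 0.0448).

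Ptpn14 (ENSMUSG00000026604, GRCm38 chromosome 1, 189728268 to 189876695, plus strand) encodes a tyrosine phosphatase that binds YAP and keeps it in the cytoplasm. In the mesenchyme its normalised count was 410, 389, 413 and 363 in depleted, 513, 514, 387 and 363 in irradiated and 292, 323, 227 and 215 in sham libraries. Both irradiated groups lay above sham without overlap, and irradiated replicates 1 and 2 were the highest. The fitted log2 change was 0.59 ± 0.139 for depleted over sham (adjusted p = 0.0109) and 0.75 ± 0.139 for irradiated over sham (adjusted p = 0.01), and both calls held with every library left out. With the endothelial marker level as a covariate neither was called (log2 change 0.37, adjusted p = 0.0595, and 0.39, adjusted p = 0.487), nor with the epithelial level (adjusted p = 0.608 and 0.437). The estimate of Ptpn14 carried over from epithelial cells was at most 10.2 in depleted, 10.2 in irradiated and 5.07 in sham mesenchyme. Without Sftpc among the markers it was at most 24.4, 20.1 and 7.94.

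In the epithelium Ptpn14 had normalised counts of 889, 853, 917 and 913 in depleted, 784, 785, 654 and 901 in irradiated and 633, 641, 645 and 668 in sham libraries. The depleted libraries stood apart from sham, and irradiated replicate 3 lay within the sham range. The log2 change was 0.46 ± 0.0746 for depleted over sham (adjusted p = 0.000718), 0.26 ± 0.0746 for irradiated over sham (adjusted p = 0.0652) and 0.20 ± 0.0746 for depleted over irradiated (adjusted p = 0.247). The first call held with every library left out, and irradiated over sham passed without irradiated replicate 3 (adjusted p = 0.00448). It also passed with library weights in limma (adjusted p = 0.0213) and with DESeq2 (adjusted p = 0.0338).

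Fjx1 (ENSMUSG00000075012, GRCm38 chromosome 2, 102449366 to 102452499, minus strand) is the mammalian relative of four-jointed, which in Drosophila is a Golgi kinase of the Fat and Dachsous cadherins. It was the lowest member. Its epithelial normalised counts were 24.7, 22.9, 19.2 and 25.1 in depleted, 16.6, 19.7, 12.9 and 23.3 in irradiated and 7.81, 8.49, 6.25 and 11.4 in sham libraries. Both irradiated groups lay above sham, and the sham values were above the level of 3 reads. Its change on the log2 scale was 1.36 ± 0.267 for depleted over sham (adjusted p = 0.00326) and 1.01 ± 0.267 for irradiated over sham (adjusted p = 0.047). Fjx1 passed the filter on low values in the epithelium through its irradiated groups, since only 1 sham library reached 10. The call of irradiated over sham was lost on leaving out any 1 library except sham replicate 4 or irradiated replicate 3 (adjusted p up to 0.163), and that of depleted over sham held throughout (adjusted p up to 0.0137).

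In the mesenchyme Fjx1 had normalised counts of 46.1, 36, 29 and 53.4 in depleted, 46.4, 30.7, 33.6 and 25.6 in irradiated and 32.5, 21.5, 17.2 and 17.5 in sham libraries. Sham replicate 1 lay among the irradiated and depleted values and the other sham libraries lay below them. Its log2 change was 0.87 ± 0.256 for depleted over sham (adjusted p = 0.0309) and 0.61 ± 0.256 for irradiated over sham (adjusted p = 0.185). The call was lost without sham replicate 2, 3 or 4 or depleted replicate 1 or 4 (adjusted p up to 0.0966), and with either marker covariate (adjusted p = 0.139 endothelial and 0.491 epithelial). The estimate of Fjx1 carried over from epithelial cells was at most 0.262 in depleted and 0.0667 in sham mesenchyme. Without Sftpc among the markers it was at most 0.629 and 0.104.

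Lats2 (ENSMUSG00000021959, GRCm38 chromosome 14, 57689662 to 57758388, minus strand) encodes a kinase that inactivates YAP and TAZ and is itself a YAP target. Its epithelial normalised counts were 771, 761, 691 and 780 in depleted, 717, 769, 713 and 691 in irradiated and 678, 653, 559 and 669 in sham libraries. Both irradiated groups lay above sham by a small margin, and sham replicate 3 was low. The fitted log2 change was 0.23 ± 0.0679 for depleted over sham (adjusted p = 0.0335) and 0.18 ± 0.0679 for irradiated over sham (adjusted p = 0.199). The call was lost without sham replicate 2 or 3 or depleted replicate 1, 2 or 4 (adjusted p up to 0.126). With the mesenchymal marker level as a covariate none of the 4 epithelial calls of depleted over sham remained (adjusted p from 0.834 for Nuak2 to 0.926 for Fjx1), and with the endothelial level Fjx1 (adjusted p = 0.0491) and Ptpn14 (adjusted p = 0.0233) did. The mesenchymal marker sums of depleted and sham epithelium do not overlap, so the marker level and the treatment cannot be told apart in that fit. The estimates carried over into depleted epithelium were at most 72.8 for Lats2, 2.29 for Fjx1, 6.06 for Nuak2 and 21.3 for Ptpn14. Mesenchymal Lats2 had normalised counts of 1423, 1325, 1250 and 1337 in depleted, 1321, 1301, 1378 and 1253 in irradiated and 1474, 1274, 1334 and 1281 in sham libraries, with all groups overlapping. The 95% interval of its fold there was 0.902 to 1.1 for depleted over sham.

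**Figure D4:**
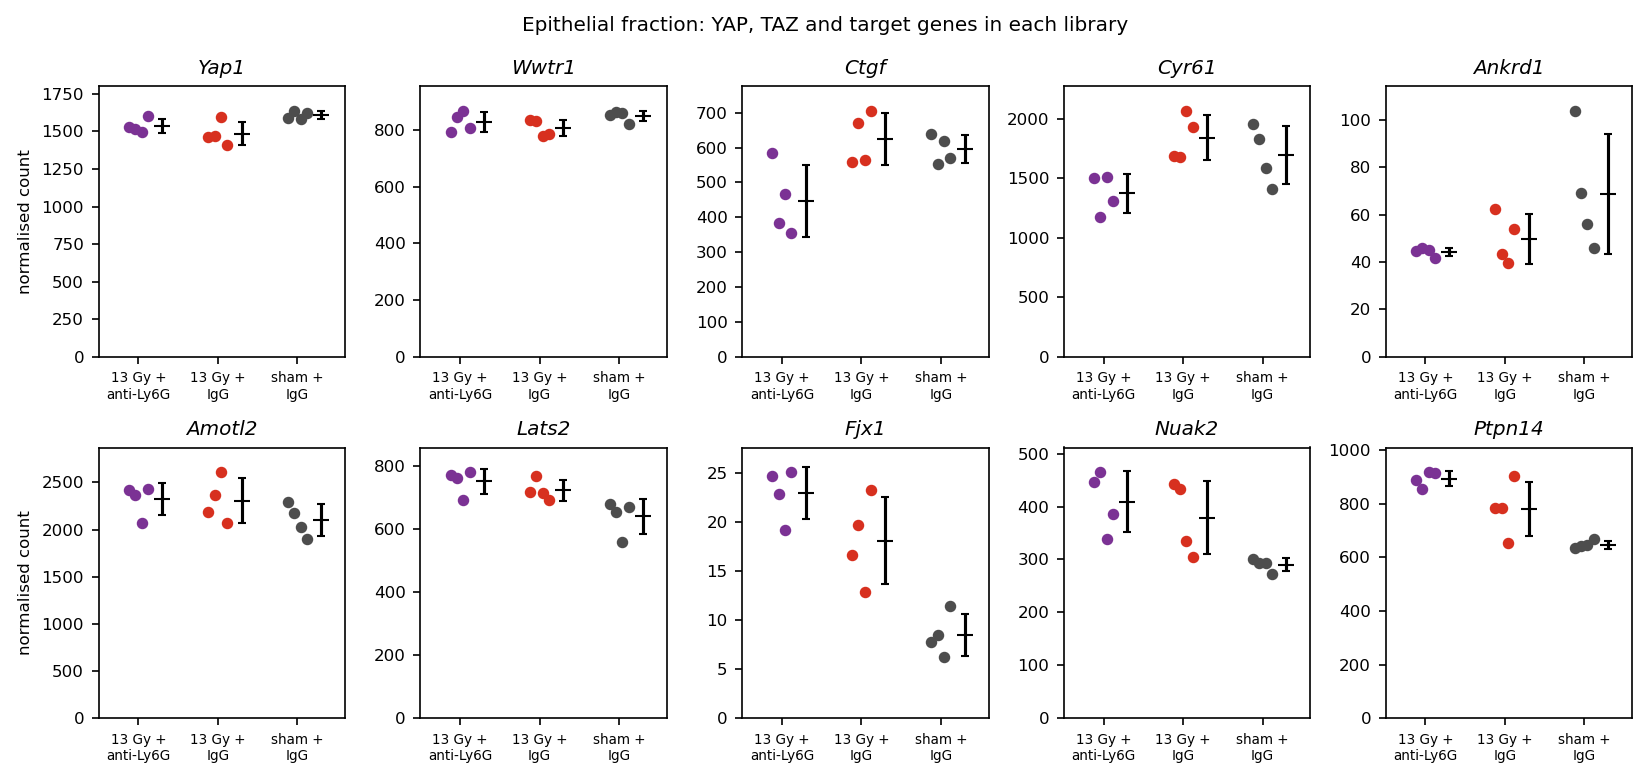
Normalised count (y axis, from 0) of each gene in the 12 epithelial libraries; points are libraries and bars are mean and SD of 4. Fjx1 spans 19.2 to 25.1 in depleted, 12.9 to 23.3 in irradiated and 6.25 to 11.4 in sham libraries, and Ptpn14 in depleted libraries lies above all sham libraries.

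Ankrd1 (ENSMUSG00000024803, GRCm38 chromosome 19, 36111961 to 36120099, minus strand) encodes an ankyrin repeat protein of muscle and stressed cells and is a widely used YAP reporter gene. In the epithelium its normalised count was 44.9, 45.8, 45.1 and 41.9 in depleted, 62.6, 43.3, 39.6 and 53.9 in irradiated and 104, 69, 56.3 and 45.8 in sham libraries. The depleted libraries lay together at the low end and the sham libraries were spread, with a log2 change of -0.55 ± 0.213 for depleted over sham (adjusted p = 0.106). In the mesenchyme it was 76.9, 44.1, 63.8 and 51.4 in depleted, 66, 66, 31.5 and 31.7 in irradiated and 47.7, 50.5, 36.3 and 26.6 in sham libraries. The irradiated libraries split into a high and a low pair, all groups overlapped, and the log2 change of depleted over sham was 0.55 ± 0.285 (adjusted p = 0.215).

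Amotl2 (ENSMUSG00000032531, GRCm38 chromosome 9, 102716672 to 102733418, plus strand) encodes an angiomotin that binds YAP at cell junctions. In the epithelium its normalised count was 2424, 2371, 2074 and 2428 in depleted, 2188, 2363, 2610 and 2068 in irradiated and 2288, 2181, 2027 and 1900 in sham libraries. In the mesenchyme it was 1807, 1474, 1516 and 1678 in depleted, 1471, 1666, 1613 and 1565 in irradiated and 1586, 1460, 1852 and 1868 in sham libraries. All groups overlapped in both fractions. The 95% interval of the fold of depleted over sham was 0.992 to 1.24 in the epithelium and 0.841 to 1.09 in the mesenchyme.

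Whether a gene responded differently in the 2 fractions was tested as the epithelial minus the mesenchymal response over 15092 genes. For irradiated over sham limma called 0 of 10 members, against 0.629% of genes, with 4 at an unadjusted p under 0.05 (Cyr61, Lats2, Nuak2 and Ptpn14). That difference in log2 units was -0.70 ± 0.219 for Nuak2 (adjusted p = 0.138), -0.49 ± 0.167 for Ptpn14 (adjusted p = 0.171) and 0.60 ± 0.205 for Cyr61 (adjusted p = 0.176). For depleted over irradiated limma called 0 of 10, against 0.596% of genes (0.0994% higher and 0.497% lower), with 1 at an unadjusted p under 0.05 (Ptpn14, 0.36 ± 0.167, adjusted p = 0.416). This difference was not fitted with edgeR or DESeq2. Both fractions came from the same mice, per the design text, which does not say whether equal replicate numbers mark 1 mouse. With the replicate number as a block within each treatment, Nuak2 was called for irradiated over sham (adjusted p = 0.0164), no other member was called, and all genes called went to 218 in place of 95.

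Upstream of YAP and TAZ, 22 Hippo kinases, adaptors and regulators were tested in each table. In depleted relative to sham epithelium, 1 rose and 3 fell (11.3% of all genes were called), and in irradiated relative to sham epithelium 1 rose and 1 fell (3.14%). In the mesenchyme, 3 rose and 3 fell in depleted relative to sham lungs (15.2% of all genes were called), 1 rose in irradiated relative to sham lungs (3.8%) and 1 fell in depleted relative to irradiated lungs (2.69%). Between depleted and irradiated epithelium limma called 0, against 0.475% of all genes (2 at an unadjusted p under 0.05, edgeR 0, DESeq2 0). The list's medians were -0.02, -0.02 and -0.03 in the epithelium and -0.07, -0.09 and -0.01 in the mesenchyme (depleted over sham, irradiated over sham, depleted over irradiated). Fat1, a giant protocadherin that restrains YAP in some tissues, rose against sham in both irradiated groups of both fractions. Its mesenchymal normalised counts were 6052, 6134, 5960 and 5962 in depleted, 6759, 6606, 5518 and 5664 in irradiated and 3732, 3680, 3413 and 3478 in sham libraries. Those of both irradiated groups stood well above sham. The log2 change was 0.75 ± 0.0776 for depleted over sham (adjusted p = 1.30e-05) and 0.77 ± 0.0776 for irradiated over sham (adjusted p = 3.36e-05), and all 4 mesenchymal values under the 2 marker covariates stayed below the threshold (adjusted p up to 0.00735). In the epithelium Fat1 changed by 0.26 ± 0.0447 and 0.24 ± 0.0447 in these comparisons (adjusted p = 0.00106 and 0.00578), and the epithelial minus the mesenchymal response to irradiation was -0.54 ± 0.0818 (adjusted p = 0.00236). With the endothelial or mesenchymal marker level as a covariate the epithelial call of irradiated over sham was lost (adjusted p = 0.365 and 0.202).

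Other Hippo genes called in depleted relative to sham epithelium were Stk4, the upstream kinase, at -0.33 ± 0.0657 (adjusted p = 0.00351), its LATS adaptor Mob1b at -0.56 ± 0.151 (adjusted p = 0.0365), and the angiomotin Amotl1 at -0.26 ± 0.0593 (adjusted p = 0.00826). Stk4 was also lower in irradiated relative to sham epithelium, at -0.26 ± 0.0657 (adjusted p = 0.0344). In depleted relative to sham mesenchyme Wwc1, the scaffold KIBRA, changed by 1.00 ± 0.246 (adjusted p = 0.0132) and Map4k4, a kinase that acts on LATS, by 0.43 ± 0.0751 (adjusted p = 0.0014). Of a mean of 88.3 normalised counts of Wwc1 in depleted mesenchyme, 23.3 to 36.8 were estimated as carried over from epithelial cells, and 55.7 to 88.1 when Sftpc was left out of the markers. Fat4 and its ligand Dchs1 fell in depleted relative to sham mesenchyme, with log2 changes of -0.39 ± 0.0807 (adjusted p = 0.00454) and -0.38 ± 0.104 (adjusted p = 0.0234), as did the angiomotin Amot, at -0.35 ± 0.111 (adjusted p = 0.0466). Fat4 was also lower in depleted relative to irradiated mesenchyme, at -0.37 ± 0.0807 (adjusted p = 0.0226). Calls of Mob1b, Amot, Dchs1, Stk4 (irradiated over sham) and Fat4 (depleted over irradiated) were each lost on leaving out some single libraries (adjusted p up to 0.105, 0.125, 0.0673, 0.152 and 0.0645). For this list edgeR called the same genes as limma. DESeq2 did not call Amot (adjusted p = 0.0566), and it also called Mob1b lower in irradiated over sham epithelium and Wwc1 higher in irradiated over sham mesenchyme. In limma Amot was lost without the filter on low values (adjusted p = 0.108) or with a replicate block (adjusted p = 0.0707). Mob1b was lost in the same 2 settings (adjusted p = 0.0814 and 0.0991). Among the list's highest genes per kilobase in sham libraries, Wwc1, Fat1 and Taok3 led in the epithelium (685, 511 and 337) and Fat1, Limd1 and Taok1 in the mesenchyme (228, 215 and 209).

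Of 8 TEAD factors and VGLL cofactors, 6 were tested, since Vgll1 and Vgll2 did not pass the filter in either table (at most 1.61 normalised counts). No TEAD gene was called in any of the 6 comparisons, by limma, edgeR or DESeq2, and 3 values had an unadjusted p under 0.05, all in the mesenchyme: Tead3 (0.017) and Tead1 (0.0229) in depleted over sham and Tead4 (0.0305) in irradiated over sham. Of all genes limma called 0.475% to 15.2% in these comparisons, so 0 among so few TEAD genes is near that share. Vgll3, a TEAD cofactor, fell in the mesenchyme. Its normalised counts there were 711, 563, 736 and 590 in depleted, 617, 634, 819 and 715 in irradiated and 930, 890, 1137 and 998 in sham libraries. Both irradiated groups lay below sham. Its change on the log2 scale was -0.61 ± 0.11 for depleted over sham (adjusted p = 0.0018) and -0.51 ± 0.11 for irradiated over sham (adjusted p = 0.0213), and the call for irradiated over sham did not survive the loss of irradiated replicate 1 or 2, or of sham replicate 3 or 4 (adjusted p up to 0.0836). In depleted relative to sham epithelium Vgll4, which competes with YAP for TEAD, changed by -0.32 ± 0.078 (adjusted p = 0.0121). Per kilobase, Vgll4, Tead1 and Tead3 led in sham epithelium (172, 167 and 66.4) and Vgll3, Tead1 and Vgll4 in sham mesenchyme (139, 123 and 79.9).

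A further 14 YAP and TAZ targets, described in human cancer cells, were tested in each table. Relative to sham, in depleted lungs 5 rose and 1 fell in the epithelium (list median 0.24, all genes -0.007), where 6.52% of all genes were called higher and 4.76% lower. In the mesenchyme 0 rose and 6 fell (list median -0.26, all genes -0.00544), where 8.51% of all genes were called higher and 6.7% lower. In irradiated relative to sham lungs limma called 0 in the epithelium (8 at an unadjusted p under 0.05, edgeR 0, DESeq2 2) and 2 lower in the mesenchyme. Of all genes 3.14% were called in that epithelial comparison and 1.15% were called lower in the mesenchymal one. In depleted relative to irradiated lungs limma called 0 in the epithelium (3 at an unadjusted p under 0.05, edgeR 0, DESeq2 1) and 2 lower in the mesenchyme. Here the shares of all genes were 0.475% called in the epithelium and 0.674% called lower in the mesenchyme. The epithelial rises were in Ccdc80, an extracellular matrix protein, at 1.87 ± 0.279 (adjusted p = 0.00196), Axl, a receptor tyrosine kinase, at 1.07 ± 0.219 (adjusted p = 0.00773), Crim1, a membrane protein that binds BMPs, at 0.93 ± 0.145 (adjusted p = 0.00108), F3, tissue factor, at 0.62 ± 0.152 (adjusted p = 0.0178), and Dock5, a Rac exchange factor, at 0.23 ± 0.0644 (adjusted p = 0.0291). Epithelial normalised counts of Ccdc80 were 250, 205, 332 and 463 in depleted, 88.1, 180, 114 and 188 in irradiated and 79, 77.5, 80.4 and 85.3 in sham libraries, the depleted ones highest and without overlap. For Ccdc80 the estimate carried over from mesenchymal cells was 88.7 to 106 in depleted epithelium (measured mean 312) and 57.5 to 63.3 in sham epithelium (80.6). For Crim1 it was 71.5 to 85.4 in depleted epithelium (381) and 71.6 to 78.8 in sham epithelium (200). For Axl it was 117 to 140 in depleted epithelium (189) and 114 to 126 in sham epithelium, above the whole measured mean of 91 there, so these estimates can overshoot. With the mesenchymal marker level as a covariate none of these 5 was called (adjusted p from 0.886 to 0.941).

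**Figure D5:**
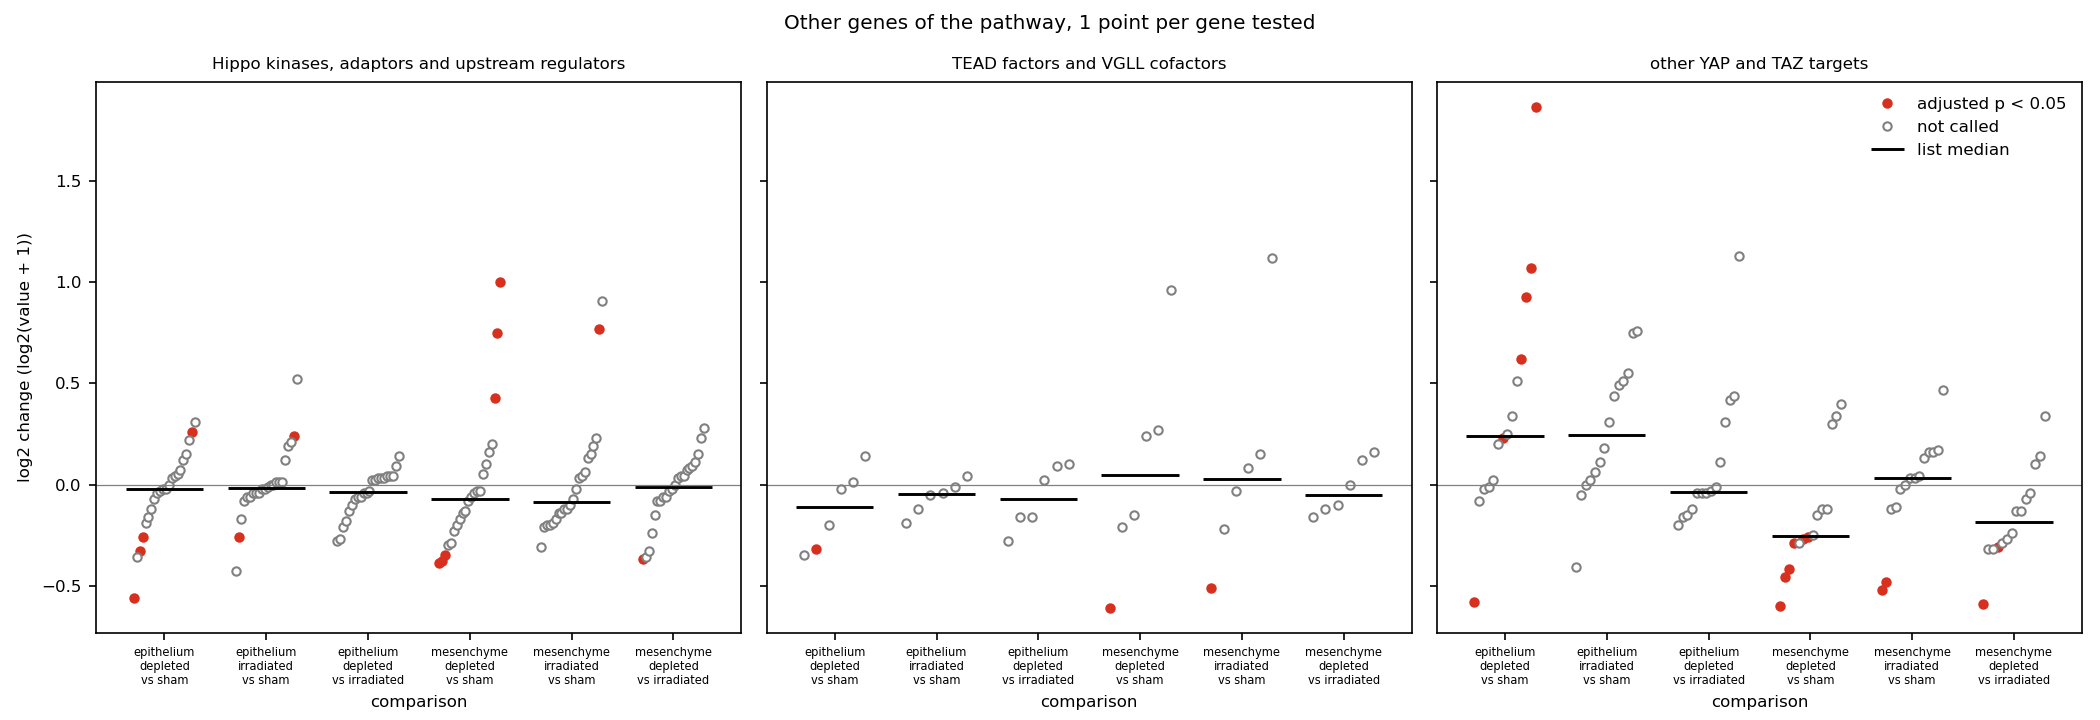
Log2 change (y axis, log2(value + 1) scale) of each tested gene of the Hippo list (22), the TEAD and VGLL list (6) and the list of other targets (14) in 6 comparisons (x axis); red points have an adjusted p under 0.05 and black lines are list medians. Among the other targets, the median for depleted relative to sham lies at 0.24 in the epithelium and at -0.26 in the mesenchyme.

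The mesenchymal falls in depleted relative to sham lungs were led by Foxf2, a forkhead factor of mesenchyme, at -0.60 ± 0.0986 (adjusted p = 0.000779), Dock5 at -0.46 ± 0.0925 (adjusted p = 0.00358) and Igfbp3, an IGF-binding protein, at -0.42 ± 0.13 (adjusted p = 0.0411). Crim1 (-0.29 ± 0.0835), Arhgef17 (-0.27 ± 0.0732) and Asap1, an Arf regulator (-0.26 ± 0.0756), fell as well, with adjusted p of 0.0286, 0.0227 and 0.0279. Igfbp3 (-0.52 ± 0.13, adjusted p = 0.0401) and Foxf2 (-0.48 ± 0.0986, adjusted p = 0.0154) were also called in irradiated relative to sham mesenchyme, and Dock5 (-0.59 ± 0.0925, adjusted p = 0.00251) and Arhgef17 (-0.31 ± 0.0732, adjusted p = 0.0352) in depleted relative to irradiated mesenchyme. Igfbp3 also fell in depleted relative to sham epithelium, at -0.58 ± 0.162 (adjusted p = 0.0345), where 164 to 196 of a mean of 186 normalised counts were estimated as carried over. For Dock5 the response to depletion differed between the fractions, by 0.70 ± 0.112 (epithelium minus mesenchyme, adjusted p = 0.00189). Its mesenchymal normalised counts were 231, 256, 281 and 218 in depleted, 343, 370, 387 and 374 in irradiated and 356, 376, 305 and 318 in sham libraries, with the depleted libraries below all others. Its epithelial ones were 1255, 1206, 1105 and 1293 in depleted, 1100, 1203, 1121 and 1066 in irradiated and 1122, 992, 963 and 1074 in sham libraries. Depleted epithelium overlapped with both other groups. Per kilobase, Myof, Rbms3 and Arhgef17 led this list in sham epithelium (224, 175 and 155) and Igfbp3, Axl and Ccdc80 in sham mesenchyme (1546, 610 and 363). Calls of Igfbp3 in all 3 comparisons, Dock5 and F3 in the epithelium, and Arhgef17, Asap1, Crim1 and Foxf2 (irradiated over sham) in the mesenchyme were lost on leaving out some single libraries.

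Among protein-coding genes averaging at least 50 normalised counts, those whose log2 levels most resembled a member over the 12 libraries of a table were listed by Pearson r, as a description, since all 12 share the 3 groups and their marker shifts. In the mesenchyme Cyr61 was most like Fam171a1 (0.986), Twsg1 (0.984) and Gja5 (0.982). Nuak2 was most like Ly6e (0.972), Cd38 (0.964) and Flt4 (0.959), and Ptpn14 like Mmrn2 (0.969), Scarb1 (0.968) and Celsr2 (0.967). Ctgf was most like Kdm5b (0.953) and Fjx1 like Nup54 (0.925). In the epithelium Nuak2 was most like Socs3 (0.988), Fjx1 like Arhgap10 (0.962), Ptpn14 like Dab2 (0.953), Lats2 like Myo18a (0.93), Cyr61 like Ncald (0.915) and Ctgf like Dgkg (0.882).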

How the data were processed

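RNA of 24 libraries of sorted lung cells was sequenced after removal of ribosomal RNA, per the labels' protocols. The submitters' processing notes list cutadapt 1.5, STAR 2.2.2a, SAMtools 1.8, RSEM 1.3.0, DESeq2 (no version) and GRCm38; the annotation release and the use of strand are not given in the sources used here. The authors deposited 1 signal table per fraction, in normalised counts (gene counts divided by a size factor per library). Steps between low values gave back whole reads for 100% of values within 0.001, although in 2 mesenchymal libraries the step lies within 1% of 1, which tells little. Floors of 3 reads cover counting error only, and intervals of fold changes come from the spread between libraries.

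Tests used limma 3.58.1 (trend and robust, R 4.3.3) on the logarithm log2(value + 1), with the 3 groups of a table in 1 fit, for genes with at least 10 normalised counts in at least 4 of 12 libraries (16626 epithelial and 16624 mesenchymal genes), and p-values were adjusted by Benjamini-Hochberg over all of them. Responses of the fractions were compared on 15092 genes in a fit of all libraries. Errors of log2 changes are standard errors. P-values measure the spread between these libraries, of 4 mice per group per the series' design text. The recovered reads were also tested with edgeR 4.0.16 (quasi-likelihood) and DESeq2 1.42.0. Further alternatives were other pseudocounts, filters, scalings and fits, leaving out each library, a replicate block and, chosen after seeing the data, marker levels as covariates and the estimates of carried-over RNA. Scripts were tested on simulated data. Of 36 pairs of libraries within groups all differed beyond sampling noise (chi-square per degree of freedom 2.25 to 13.1).

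The members and gene lists were chosen with earlier results of these data known. Named are all members, every gene of the pathway lists called in a comparison and the 3 highest per kilobase of each list. Exons of Yap1, Ctgf, Lats2 and Ptpn14 overlap other annotated genes in GENCODE M21, so reads there may be split between genes.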

Additional observations from a re-analysis of the deposited data

Results flagged for a closer look

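Of 180 groups of 4 libraries checked, 11 held a library far from the other 3, where chance gives about 1 in 20. For the members, epithelial depleted replicate 3 was low in Amotl2 (2074 normalised counts, others 2371 to 2428), mesenchymal sham replicate 1 was low in Wwtr1 (1496, others 1526 to 1530), mesenchymal irradiated replicate 4 was high in Ctgf (4790, others 3930 to 3967) and mesenchymal depleted replicate 3 was low in Nuak2 (79.2, others 118 to 121). For the other genes of the pathway, epithelial irradiated replicate 1 was high in Fat1 (9751) and replicate 4 in Amot (71.5), epithelial depleted replicate 4 was high in Map4k4 (1538) and epithelial sham replicate 2 low in Asap1 (103). In the mesenchyme, depleted replicate 4 was high in Mob1b (448), depleted replicate 1 in Axl (2818) and irradiated replicate 1 in Ccdc80 (2161).

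In 2 genes the fractions responded differently. The response of Fat1 to irradiation was lower in the epithelium than in the mesenchyme by a log2 difference of -0.54, and the response of Dock5 to depletion was higher by 0.70.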

How the results depend on the processing

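Marker levels as covariates were added after seeing the data and differ between the groups by themselves. With the endothelial level, members called were 0 (irradiated over sham, epithelium), 2 (depleted over sham, epithelium), 0 (irradiated over sham, mesenchyme), 1 (Cyr61, depleted over irradiated, mesenchyme) and 2 (depleted over sham, mesenchyme). With the marker level of the other fraction they were 0, 0, 0, 0 and 0 in these comparisons and 1 (Ctgf, depleted over irradiated, epithelium). For irradiated over sham epithelium the 1 call became 0 with a pseudocount of 8, no filter, a mean of at least 50, quantile normalisation or the 2 groups alone, and 2 with library weights. Those 2 were Fjx1 and Ptpn14, and with DESeq2 the 1 call was Ptpn14 in place of Fjx1. Depleted over sham epithelium had 2 of its 4 calls without trend and robust steps. It gained Ctgf (lower) with DESeq2, quantile normalisation or a mean of at least 50. Depleted over irradiated gave 2 calls with DESeq2 in the epithelium, and 1 (Cyr61) with quantile normalisation, library weights or DESeq2 in the mesenchyme. Irradiated over sham mesenchyme gained Cyr61 (lower) with DESeq2, the 2 groups alone or a replicate block. Within a fraction the correlation of deviations of same-numbered libraries was -0.111 to 0.172. Its median was 0.0384 in the epithelium and 0.038 in the mesenchyme, against -0.00367 and -0.00781 for other pairs. These values do not settle whether replicate numbers pair libraries within a fraction. Between the fractions 7 of 12 same-numbered pairs exceeded 0.1 (median 0.107, against -0.0216 for other pairs), a hint from the data that numbers may mark mice; with a replicate block members called became 2 (irradiated over sham, epithelium), 1 (depleted over irradiated, mesenchyme) and 1 (difference of the fractions in irradiated over sham, Nuak2). Without 1 library, counts ranged from 0 to 2, 0 to 1 and 3 to 5 in the epithelium (irradiated over sham, depleted over irradiated, depleted over sham), from 2 to 3, 0 to 1 and 3 to 5 in the mesenchyme, and from 0 to 1 for the difference in irradiated over sham. Over all genes, irradiated over sham called 522 epithelial genes (41 to 964 under other settings) and 631 mesenchymal genes (56 to 1055), and depleted over irradiated 79 (5 to 289) and 448 (219 to 785).

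Some log2 changes took the other sign; the cause was not tested. Mesenchymal Ankrd1 moved furthest, to -0.125 for depleted over sham (0.55 without covariate) and -0.376 for irradiated over sham (0.22). With quantile normalisation these were Amotl2 (-0.0148 in the epithelium and -0.0181 in the mesenchyme, depleted over irradiated, and 0.00324 for the difference of the fractions), Lats2 (-0.0152, mesenchyme, depleted over irradiated) and Yap1 (0.0136, mesenchyme, irradiated over sham). Yap1 did so there also with library weights (0.00182) and DESeq2 (0.00491), and with TMM for depleted over irradiated (0.00279). With the endothelial covariate they were Ctgf (-0.0949, epithelium, irradiated over sham), and in the mesenchyme Wwtr1 (0.0366 and 0.00137), Amotl2 (0.0236 and 0.0455; depleted over sham, irradiated over sham), Ankrd1 (-0.372, irradiated over sham) and Amotl2 (-0.0219, depleted over irradiated). With the other fraction's level they were Ctgf (-0.341, epithelium, irradiated over sham), Yap1 (0.00632) and Wwtr1 (0.0116) for depleted over sham epithelium, and in the mesenchyme Wwtr1 (0.0956 and 0.00139), Ankrd1 (-0.125 and -0.376), Amotl2 (0.118 and 0.0646) and Nuak2 (-0.00041, depleted over irradiated). Leaving out 1 library gave ranges across 0 for Amotl2 (-0.0377 to 0.074, epithelium, depleted over irradiated), in the mesenchyme for Yap1 (-0.0487 to 0.0333, -0.0466 to 0.0354 and -0.0272 to 0.0409) and Lats2 (-0.0379 to 0.0402, -0.0515 to 0.0183 and -0.00986 to 0.0528; depleted over sham, irradiated over sham, depleted over irradiated), Wwtr1 (-0.0818 to 0.014, depleted over sham), Amotl2 (-0.0216 to 0.0763) and Nuak2 (-0.0452 to 0.197, depleted over irradiated), and for the difference of the fractions in depleted over irradiated in Wwtr1 (-0.0871 to 0.00864), Amotl2 (-0.0705 to 0.0413), Fjx1 (-0.0691 to 0.222) and Nuak2 (-0.0807 to 0.162). Depth limits Fjx1 most, with 6.25 to 11.4 normalised counts in sham epithelium.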
